A study of Homo sapiens with 44 samples.

Results

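Wells of H1 cells taken at days 14 and 20 of cardiac differentiation were compared with wells taken at day 11. H1 is an established line of human embryonic stem cells. The comparison holds 11 of the 44 wells of the series, chosen by the day in their labels: 5 at day 11 (replicates 1, 2, 5, 6 and 7), 3 at day 14 (replicates 2, 3 and 6) and 3 at day 20 (replicates 1, 2 and 3). The wells of days 14 and 20 form 1 group of 6. The series' design text gives 3 wells at day 11 where the labels give 5, and all 5 were used. All 11 wells had been coated with the laminins LN-521 and LN-221. They received the GSK3 inhibitor CHIR99021 at day 0 and the Wnt production inhibitor IWP2 at day 3. Cultures were kept in RPMI medium with the complete CTS B-27 supplement from day 11, the day on which the day 11 wells were taken. Before day 11 the supplement lacked insulin. There is 1 cell line and no purification of cells, so each value is the average of a mixed culture, and fewer cells of a type cannot be told apart from less RNA per cell.

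A beating cardiomyocyte contracts through sarcomeres, in which myosin heads pull on actin filaments when calcium rises. Young cardiomyocytes express fetal forms of these proteins, and they acquire ventricular myosin light chain, sodium and potassium channels and membrane folds as they mature. Caveolae are flask-shaped pits of the plasma membrane built from caveolins and cavins. The small heat shock proteins of muscle bind unfolded proteins and protect the contractile filaments. HSPB3, one of these chaperones, and CAV1, the caveolin found in most non-muscle cells and in some muscle cells, were the 2 genes proposed to mark the days compared.

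The 11 libraries held 6937136 to 31323325 estimated counts. The RNA integrity number (RIN), a score of RNA intactness from 1 to 10, was 8.94 ± 0.63 at day 11 (SD, n = 5) and 8.48 ± 0.89 later (SD, n = 6; two-sided exact permutation test, p = 0.394). The wells did not group by day alone. Day 11 replicates 1 and 2 agreed closely with each other (Spearman correlation 0.989 across genes), as did day 11 replicates 5, 6 and 7 (0.993 to 0.994), but the correlation between these sets was only 0.936 to 0.951. Replicates 1 and 2 had RIN values of 8.6 and 8, and the others 9.2 to 9.5. The lowest RIN and the lowest depths were in day 14 replicate 2 (RIN 7.4, 8679308 counts) and day 20 replicate 2 (RIN 8, 6937136 counts). RIN was a covariate, and results were also computed without these wells. The labels call the wells biological replicates of 1 line, and p-values measure the spread between wells.

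**Figure D1:**
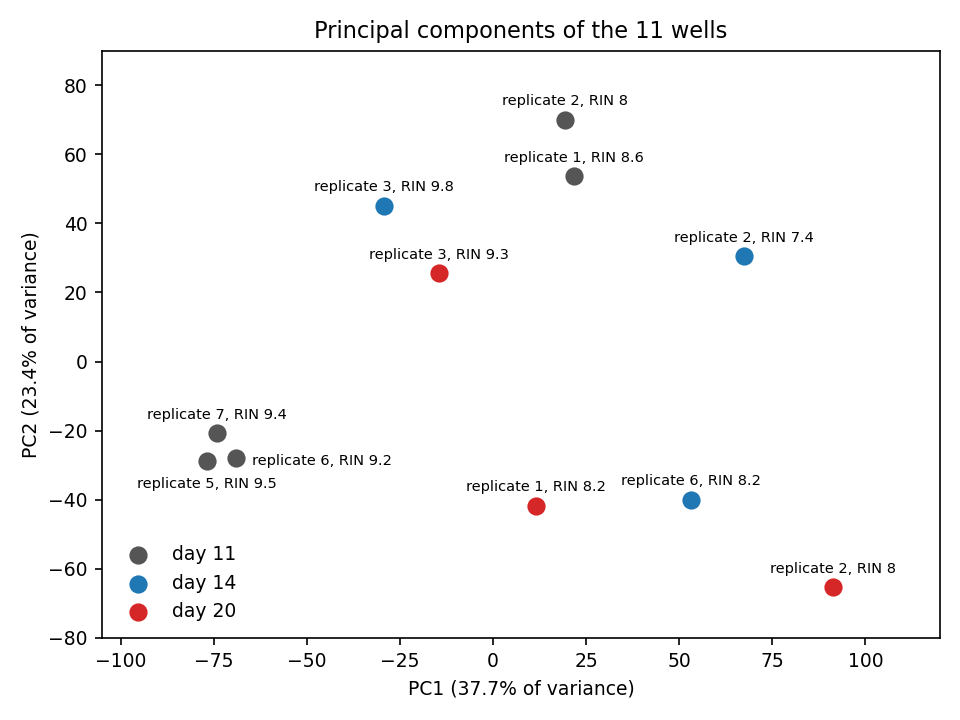
Principal components 1 and 2 of the 11 wells, from log2 levels, with the share of variance on each axis and the replicate number and RIN beside each point. Day 11 replicates 5, 6 and 7 lie together at the left, apart from day 11 replicates 1 and 2, and the wells of days 14 and 20 are spread over the rest of the plot.

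The comparison asked which genes differ between the later wells and those of day 11. The later wells were older and had also been in the complete medium for several days. Age of the culture and time in that medium cannot be told apart here. Across 18277 genes, 0 passed at an adjusted p under 0.05 in edgeR's quasi-likelihood test with RIN as covariate (0%, smallest adjusted p 0.0529 for CDH17). At an unadjusted p under 0.05, 1457 genes were higher (7.97%) and 1145 lower (6.26%) at days 14 and 20. For 574 genes (3.14%) the range of the 6 later wells did not overlap the range of the 5 day 11 wells. The number passing depended strongly on the fit: DESeq2 passed 673 genes, and edgeR with all 44 libraries in the fit passed 2824. Leaving out day 14 replicate 2 gave 187 and leaving out day 14 replicate 3 gave 150. Single genes below are therefore given with the fit in which they passed.

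2 of these fits are used for single genes. The first uses the same 11 wells with 1 mean per day, so that the step from day 14 to day 20 is not counted as spread between wells. It passed 23 of 20192 genes (0.114%), 19 higher and 4 lower. The second adds the wells of days 7, 9, 30 and 90, which makes 27 libraries that share 1 estimate of the spread. It passed 246 of 22125 genes higher (1.11%) and 307 lower (1.39%), and 21 of the 23 genes were among them. These fits share the same wells of days 11, 14 and 20, so they are not independent of each other. The spread between wells (biological coefficient of variation in edgeR) was 38.0% in the first fit and 34.1% in the second. By day it was 24.4% (day 9), 34.8% (day 11), 42.9% (day 14), 45.8% (day 20), 47.1% (day 30) and 40.0% (day 90). Adjusted p values of the second fit may therefore be too small for the days compared. How far the added wells changed which genes passed was not tested.

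HSPB3 (chromosome 5, 54455601 to 54456384, GRCh38) was at 1.35, 1.201, 2.26, 2.08 and 2.08 CPM (counts divided by the scaled size of each library) in the 5 day 11 wells. It reached 2.88, 5.74 and 4.34 CPM at day 14 and 31.5, 34.8 and 33.8 CPM at day 20. The 3 days did not overlap. In TPM, the deposited values per length, the day 20 wells were at 24.2, 42.92 and 29.13, with the well of lowest depth highest. The pooled comparison gave a log2 fold change of 3.56 ± 0.75 (SE, adjusted p = 0.168). With 1 mean per day HSPB3 rose by 2.92 ± 0.19 (adjusted p = 2.2e-04), and it rose with 27 libraries as well (2.73 ± 0.34, adjusted p = 1.5e-04). The direction was the same under all 26 alternatives, which share wells, and HSPB3 passed in 6 of them.

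CAV1 (chromosome 7, 116524785 to 116561184) was at 10.5, 11.1, 7.03, 6.55 and 5.10 CPM at day 11. At day 14 it was at 9.29, 15.5 and 58.9 CPM, and at day 20 at 68.7, 62.5 and 28.6 CPM. Day 14 replicate 2 lay within the day 11 range, and the 3 highest wells were day 14 replicate 6 and day 20 replicates 1 and 2. The log2 fold change was 2.08 ± 0.48 in the pooled comparison (SE, adjusted p = 0.168) and did not pass with 1 mean per day (adjusted p = 0.129). With 27 libraries CAV1 rose (2.24 ± 0.50, adjusted p = 0.0246). HSPB3 separated the days well by well, while CAV1 was high in some later wells and not in others.

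**Figure D2:**
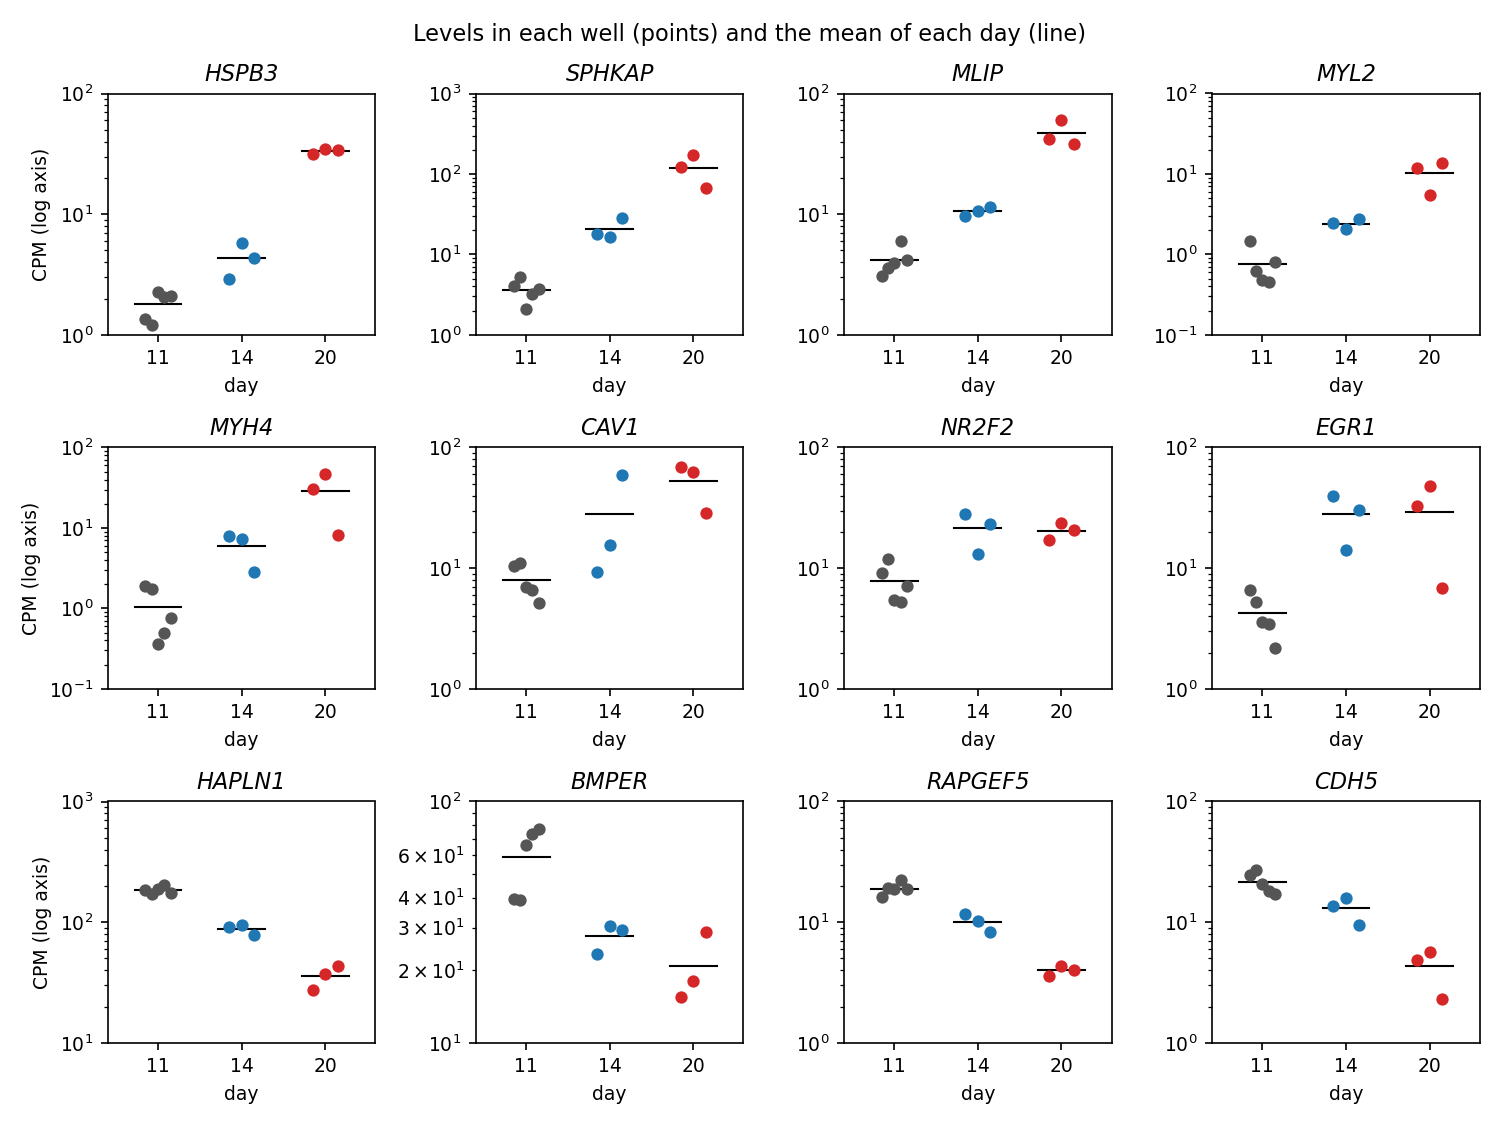
Level of 12 genes in CPM on log axes, with 1 point per well for day 11 (n = 5), day 14 (n = 3) and day 20 (n = 3) and a line at each day's mean. HSPB3, SPHKAP, MLIP, MYL2 and MYH4 step up at both later days, NR2F2 and EGR1 are similar at days 14 and 20, CAV1 overlaps between days 11 and 14, and HAPLN1 and RAPGEF5 step down at both later days.

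Of the 22 sarcomere genes 1 rose with 1 mean per day, MYL2, and of the 12 muscle chaperones tested there 1, HSPB3 (0.114% of all genes passed). SPHKAP, MLIP, MYL2 and MYH4 rose in both of these fits. SPHKAP, an anchor for protein kinase A, was at 2.10 to 5.24 CPM at day 11, at 17.9, 16.7 and 28.1 CPM at day 14 and at 123, 170 and 67.2 CPM at day 20. Its log2 fold change with 1 mean per day was 3.59 ± 0.26 (adjusted p = 3.0e-04). MLIP, a lamin-binding protein of muscle, went from 3.10 to 5.96 CPM at day 11 to 9.63, 10.6 and 11.4 CPM at day 14 and 41.7, 60.4 and 38.0 CPM at day 20 (2.43 ± 0.22, adjusted p = 0.0017). In both genes the 3 days were separate.

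MYL2 encodes the ventricular regulatory light chain of myosin. It was at 1.45, 0.625, 0.485, 0.451 and 0.798 CPM at day 11, at 2.43, 2.04 and 2.76 CPM at day 14 and at 11.9, 5.40 and 13.6 CPM at day 20. It rose by 2.70 ± 0.40 with 1 mean per day (adjusted p = 0.0381). MYH4, a heavy chain known from fast skeletal muscle, was at 0.364 to 1.90 CPM at day 11, at 7.97, 7.31 and 2.83 CPM at day 14 and at 30.4, 46.8 and 8.10 CPM at day 20 (3.49 ± 0.54, adjusted p = 0.0469). The neighbouring heavy chain gene MYH2 was at 0.937 to 1.25 CPM at day 11 and at 2.32 to 12.4 CPM later, and it passed only with 27 libraries of these 3 fits (adjusted p = 0.0102). The myosin heavy chains are similar in sequence, and reads shared between them were divided by the estimation of counts. TRDN-AS1 is antisense to the calcium release protein gene TRDN. It was at 0.192 to 0.323 CPM at day 11, at 0.968 to 1.77 CPM at day 14 and at 3.24 to 15.1 CPM at day 20. Whether counting used the strand is not given in the sources used here, so reads of TRDN and TRDN-AS1 may be mixed.

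Other genes that rose with 1 mean per day act outside the contractile apparatus. PDGFD, a growth factor for mesenchymal cells, was at 23.4 to 36.9 CPM at day 11, at 34.2, 44.7 and 63.6 CPM at day 14 and at 124, 123 and 121 CPM at day 20. LAMA2, the laminin chain of muscle basement membrane, was at 60.7 to 121 CPM at day 11 and at 206, 266 and 281 CPM at day 20, with day 14 replicate 6 (106 CPM) inside the day 11 range. ITGB6, an integrin chain of epithelia, was at 3.00 to 7.08 CPM at day 11, at 5.98, 13.6 and 32.8 CPM at day 14, with replicate 2 inside the day 11 range, and at 43.1, 45.1 and 85.7 CPM at day 20. The phospholipid flippase ATP8A1 was at 12.3 to 13.9 CPM at day 11, at 15.7 to 21.8 CPM at day 14 and at 33.4 to 45.2 CPM at day 20. CDH17, a cadherin of the gut lining, was at 0.0903 to 0.500 CPM at day 11 and at 2.54 to 7.76 CPM later. Its day 11 values were near the floor, with at most 10 counts in a well and under 3 counts in replicate 6. CDH17 had the smallest adjusted p of the pooled comparison and was the 1 gene that passed without the RIN covariate (adjusted p = 0.0225).

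EGR1 and NR2F2 followed another course. EGR1, an immediate early transcription factor, was at 6.54, 5.29, 3.60, 3.48 and 2.19 CPM at day 11, at 39.7, 14.0 and 30.2 CPM at day 14 and at 32.5, 47.5 and 6.88 CPM at day 20. NR2F2, a nuclear receptor of atrial cardiomyocytes and of venous and mesenchymal cells, was at 9.19, 11.9, 5.50, 5.28 and 7.18 CPM at day 11, at 27.99, 13.2 and 23.1 CPM at day 14 and at 17.0, 23.5 and 20.6 CPM at day 20. Both rose with 1 mean per day (EGR1 2.23 ± 0.32, adjusted p = 0.0381; NR2F2 1.24 ± 0.19, adjusted p = 0.0473). The step from day 14 to day 20 was -0.06 for EGR1 and 0.04 for NR2F2 on the log2 scale. EGR1 passed with 27 libraries and NR2F2 did not (adjusted p = 0.0975). NR2F2 overlaps NR2F2-AS1.

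Of the 10 higher genes with the smallest unadjusted p and separate ranges in the pooled comparison, 9 were EGR1, NR2F2, SPHKAP, EGFEM1P, SPTBN5, SEC16A, MYH2, ADAMTSL1 and PLEKHG1. None of the 10 passed in edgeR in that comparison, and 7 passed with 27 libraries, where 1.11% of all genes passed higher. The 10 were picked by p and separate ranges in wells that the 27 libraries include, so the 7 are not separate support. SEC16A, which organizes the exit sites of the endoplasmic reticulum, was at 49.5 to 72.0 CPM at day 11 and at 88.6 to 124 CPM later, a difference of 0.72 ± 0.12 that did not pass in any of the 3 fits named (adjusted p = 0.168, 0.0692 and 0.0799). SPTBN5 overlaps PLA2G4B, and SEC16A overlaps C9orf163.

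Among genes that were lower, HAPLN1, which links hyaluronan to proteoglycans in the matrix, was at 184, 171, 189, 203 and 174 CPM at day 11. It was at 91.1, 95.4 and 77.9 CPM at day 14 and at 27.4, 36.9 and 43.2 CPM at day 20, so that the 3 days were separate. It fell by 1.67 ± 0.14 on the log2 scale with 1 mean per day (adjusted p = 6.9e-04). RAPGEF5, an exchange factor for Rap proteins, was at 16.0 to 22.2 CPM at day 11, at 11.7, 10.3 and 8.34 CPM at day 14 and at 3.59, 4.35 and 4.05 CPM at day 20 (-1.58 ± 0.17, adjusted p = 0.0056). The long non-coding RNA gene FIRRE was at 26.95 to 31.4 CPM at day 11, at 17.9 to 23.7 CPM at day 14 and at 8.54 to 11.5 CPM at day 20 (-1.02 ± 0.15, adjusted p = 0.0381). CDH5, the cadherin of endothelial junctions, was the fourth gene that fell in this fit and is described with the endothelial genes.

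The 10 lower genes with the smallest unadjusted p and separate ranges were RSRP1, BMPER, GLUL, HAPLN1, ZNF124, ASH2L, SLC39A10, PRCP, BMP4 and ITGA9. None passed in the pooled comparison and 7 passed with 27 libraries, where 1.39% of all genes passed lower. These 10 genes were likewise picked by their values in the same wells. They include a ligand and a binding protein of the bone morphogenetic protein pathway, which patterns the early heart. BMP4, the ligand, was at 30.3, 34.9, 26.9, 25.6 and 30.9 CPM at day 11, at 20.9, 22.1 and 12.8 CPM at day 14 and at 14.2, 11.8 and 11.6 CPM at day 20. BMPER, which binds such ligands outside the cell, was at 39.3, 39.2, 65.9, 73.3 and 76.6 CPM at day 11, at 23.2, 30.5 and 29.4 CPM at day 14 and at 15.5, 17.99 and 28.8 CPM at day 20. With 27 libraries BMP4 fell by 1.03 (adjusted p = 0.0170) and BMPER by 1.30 (adjusted p = 0.0258). GLUL, glutamine synthetase, was at 258 to 424 CPM at day 11 and at 125 to 211 CPM later. Of these genes RSRP1 overlaps TMEM50A, ASH2L overlaps STAR, PRCP overlaps DDIAS and ITGA9 overlaps ITGA9-AS1.

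Lists of genes were then read as groups in the pooled comparison, each beside the values over all 18277 genes (median log2 fold change 0.02, 7.97% higher and 6.26% lower at unadjusted p under 0.05). Of 22 sarcomere genes, 7 were higher at that level and 0 lower, with a median of 0.55. The 7 were MYL2, MYL3, TTN, MYOM1, ACTA1, TNNC1 and LDB3. MYL3, the ventricular essential light chain, was at 175 to 408 CPM at day 11 and 270 to 997 CPM later (0.97 ± 0.25, adjusted p = 0.18). MYH6, the alpha myosin heavy chain of young and atrial cardiomyocytes, was at 8096 ± 4010 CPM at day 11 (SD, n = 5) and 6605 ± 1254 CPM later (SD, n = 6). The summed sarcomere level was 18935 and 11507 CPM in day 11 replicates 1 and 2, 35832 to 42025 CPM in replicates 5 to 7 and 23745 to 48177 CPM in the later wells. Without replicates 1 and 2 the median of the list was -0.20, and without the RIN covariate it was 0.20. The direction of the sarcomere list therefore rested on those 2 wells.

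Calcium handling genes had a median of 0.27 with 4 of 18 higher, PLN, CASQ1, CACNA1C and JPH1. Of these, PLN, the inhibitor of the calcium pump, was at 93.3 to 195 CPM at day 11, at 182, 148 and 304 CPM at day 14 and at 526.3, 639 and 373 CPM at day 20 (1.18 ± 0.42, adjusted p = 0.259), and CASQ1, a calcium store protein, was at 1.25 to 6.31 CPM and 3.87 to 11.6 CPM later (adjusted p = 0.241). Ion channels and connexins had a median of 0.39, with 6 of 18 higher and 1, KCNA5, lower. KCNJ2, an inward rectifier potassium channel, was at 1.13 to 3.56 CPM at day 11 and 4.19 to 11.0 CPM later (1.47 ± 0.37, adjusted p = 0.176). Muscle chaperones had a median of 0.32 with 2 of 11 higher, HSPB3 and HSPB7. HSPB7 was at 148 to 507 CPM at day 11, at 408, 445 and 543 CPM at day 14 and at 1014, 1242 and 633 CPM at day 20 (1.10 ± 0.44, adjusted p = 0.291). Without day 11 replicates 1 and 2 the medians were -0.11 for calcium handling, -0.10 for ion channels and -0.08 for chaperones.

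Cardiac transcription factors had a median of 0.14, with 2 of 17 higher, NR2F2 and HEY2, and -0.13 without day 11 replicates 1 and 2. HEY2 is a transcriptional repressor expressed in the compact ventricular wall. It was at 15.7 to 43.5 CPM at day 11, at 36.4 to 55.1 CPM at day 14 and at 116, 185 and 61.4 CPM at day 20 (1.25 ± 0.50, adjusted p = 0.301). Of 7 cardiomyocyte markers 1 was higher, HSPB3, and their median of 0.69 was -0.43 without those wells. MYBPC3, a sarcomere regulator, was at 115 to 586 CPM at day 11 and 216 to 742 CPM later (adjusted p = 0.416). The natriuretic peptide gene NPPA was at 817 ± 631 CPM at day 11 (SD, n = 5) and 213 ± 102 CPM later (SD, n = 6), and its difference did not reach an unadjusted p under 0.05 (0.122).

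Caveolae genes had a median of 0.48 with 4 of 9 higher: CAV1, CAV2, EHD2 and CAVIN1. CAV2, the partner of CAV1, was at 19.6, 16.3, 10.2, 10.4 and 9.02 CPM at day 11, at 18.8, 18.7 and 43.5 CPM at day 14 and at 58.1, 58.6 and 30.9 CPM at day 20. It followed CAV1 in having its 3 highest values in day 14 replicate 6 and day 20 replicates 1 and 2, and it rose with 27 libraries (1.43, adjusted p = 0.0419). The median of the list was above 0 under all 26 alternatives (0.02 to 0.63). Smooth muscle genes had a median of 0.55 with 9 of 9 above 0 and 5 higher (MYH11, MYL9, TAGLN, ACTA2 and TPM2), and that median was above 0 in all 26 as well (0.44 to 0.84). MYH11, the smooth muscle myosin, was at 20.2, 8.36, 12.01, 12.3 and 10.6 CPM at day 11, at 21.5, 20.5 and 62.3 CPM at day 14 and at 38.1, 47.5 and 42.8 CPM at day 20 (1.55 ± 0.34, adjusted p = 0.168). MYL9 was at 201 to 302 CPM at day 11 and 277 to 541 CPM later (0.69 ± 0.18, adjusted p = 0.189). The summed level of the smooth muscle list was 1545 to 1884 CPM at day 11 and 1910 to 3704 CPM later, without overlap.

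Matrix genes had a median of 0.37 with 5 of 18 higher, LAMA2, COL5A1, COL4A2, COL4A1 and COL1A1. Over the alternatives the median ran from 0.22 to 0.59. COL5A1, a fibrillar collagen, was at 313 to 392 CPM at day 11 and 404 to 686 CPM later (0.56 ± 0.16, adjusted p = 0.206). Fibroblast and epicardial markers had a median of 0.10, with 1 of 12 higher and 1 lower. COL1A1 was at 299 to 451 CPM at day 11 and 282 to 993 CPM later (adjusted p = 0.288), and PDGFRA, a receptor of mesenchymal progenitors, was at 224 to 295 CPM and 84.4 to 224 CPM later (adjusted p = 0.247).

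**Figure D3:**
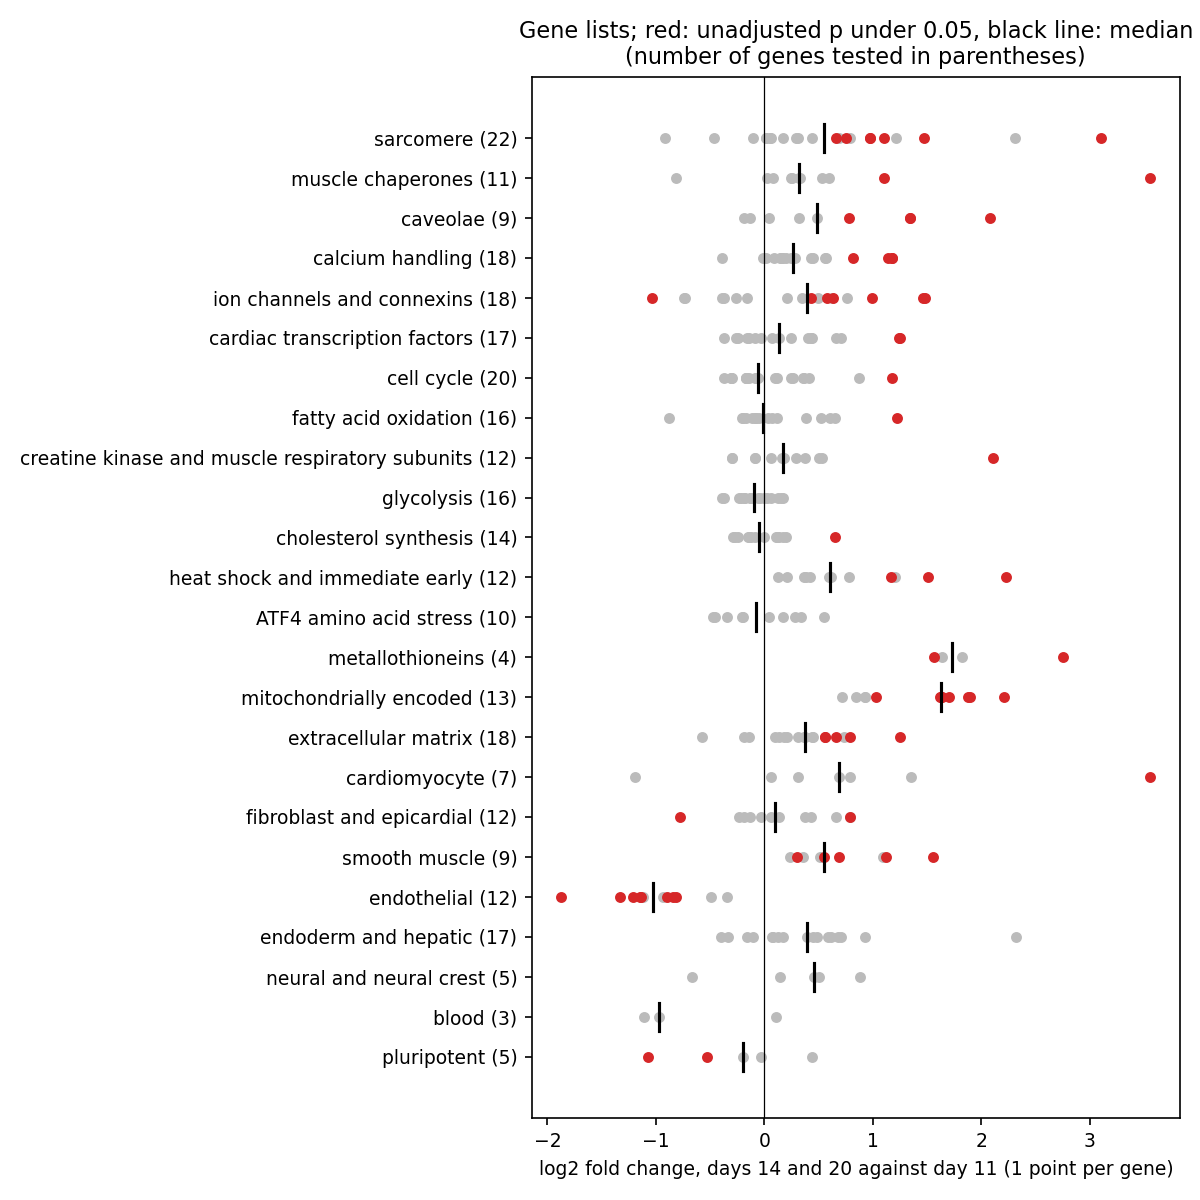
Log2 fold change of days 14 and 20 against day 11 in the pooled fit for each tested gene of 24 lists (number of genes in parentheses), with red points at an unadjusted p under 0.05 and a black line at the median. All 12 endothelial genes lie below 0, all 9 smooth muscle, all 13 mitochondrially encoded and all 12 heat shock and immediate early genes lie above 0, and no gene passed after adjustment.

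Endothelial markers were the list with the most genes lower. All 12 were below 0, 8 of them at an unadjusted p under 0.05, with a median of -1.03, and the median was below 0 under all 26 alternatives (-2.16 to -0.63). CDH5 was at 24.5, 27.1, 20.5, 17.97 and 17.0 CPM at day 11, at 13.5, 16.0 and 9.46 CPM at day 14 and at 4.87, 5.70 and 2.32 CPM at day 20. It fell by 1.59 ± 0.25 with 1 mean per day (adjusted p = 0.0483). VWF, the clotting factor carrier made by endothelium, was at 2.25, 4.28, 3.76, 3.84 and 3.75 CPM at day 11, at 1.44, 1.76 and 0.591 CPM at day 14 and at 0.390, 1.199 and 0.478 CPM at day 20. With 27 libraries 3 endothelial genes fell: VWF (adjusted p = 0.0085), EGFL7 (adjusted p = 0.0176) and CDH5 (adjusted p = 0.0329). EGFL7, a secreted endothelial protein, was at 31.8 to 58.3 CPM at day 11 and 13.0 to 36.9 CPM later. The receptor KDR, which cardiac progenitors also express, was at 259 ± 44.4 CPM at day 11 (SD, n = 5) and 151 ± 60.1 CPM later (SD, n = 6; adjusted p = 0.240 in edgeR). The summed level of the list was 374 to 590 CPM at day 11, 372, 390 and 223 CPM at day 14 and 221, 179 and 97.1 CPM at day 20.

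Mitochondrially encoded genes were all above 0, with a median of 1.63 and 9 of 13 at an unadjusted p under 0.05, and 8 rose with 27 libraries. Without the RIN covariate the median was 2.64. Their share of all counts was 0.511% ± 0.220 at day 11 (SD, n = 5) and 1.57% ± 1.21 later (SD, n = 6; two-sided exact permutation test, p = 0.0390, or 0.117 adjusted over 3 single values). The highest shares were 3.51% in day 20 replicate 2 and 2.59% in day 14 replicate 2, the wells with the fewest counts. Among the later wells the lowest share, 0.511%, was in day 14 replicate 3, which had the highest RIN (9.8). Without day 20 replicate 2 the difference in means went from 1.06 to 0.67 percentage points, and the exact permutation p to 0.0714. It was above 0.05 for 8 of the 11 wells left out in turn. MT-CYB was at 206, 103, 33.1, 53.1 and 26.96 CPM at day 11, at 1084, 113 and 332 CPM at day 14 and at 230, 1573 and 189 CPM at day 20. MT-ND5 was at 35.3 to 153 CPM at day 11 and 94.6 to 1095 CPM later. Without the 2 wells with the fewest counts the median of the list was 1.08, the lowest of the 26 alternatives. The part of depth and RNA integrity in the difference in share was not tested.

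Zinc-binding metallothioneins and the zinc exporter SLC30A1 had a median of 1.73 over 4 tested genes, 2 of them at an unadjusted p under 0.05, but the later wells were divided. SLC30A1 was at 23.8 to 38.4 CPM at day 11, at 35.7, 28.9 and 256 CPM at day 14 and at 232, 172 and 41.8 CPM at day 20. MT1E was at 0.350 to 1.21 CPM at day 11, at 1.77, 1.25 and 26.3 CPM at day 14 and at 8.26, 4.05 and 1.51 CPM at day 20. The high wells were again day 14 replicate 6 and day 20 replicates 1 and 2, as for CAV1 and CAV2. Both genes rose with 27 libraries (SLC30A1 2.06, adjusted p = 0.0397; MT1E 3.21, adjusted p = 0.0242). Heat shock and immediate early genes had a median of 0.61 with 3 of 12 higher, EGR1, FOS and JUNB, and a median of -0.12 without day 11 replicates 1 and 2. FOS was at 10.6, 14.4, 10.9, 11.0 and 11.4 CPM at day 11 and at 19.3 to 63.6 CPM later (1.51 ± 0.32, adjusted p = 0.168).

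Markers of other lineages varied more between wells than between days. The summed level of endoderm and hepatic genes was 7907 and 14030 CPM in day 11 replicates 1 and 2, 469 to 606 CPM in replicates 5 to 7 and 1755 to 7684 CPM later. Of 17 tested, 0 reached an unadjusted p under 0.05. ALB was at 0.729 to 18.2 CPM at day 11 and 3.54 to 102 CPM later, and CDH1 at 28.6 to 93.3 CPM and 39.7 to 168 CPM. The cell cycle list was divided in the same way at day 11. Its sums were 1671 and 1875 CPM in replicates 1 and 2 and 519 to 595 CPM in replicates 5 to 7. The later wells were divided too, with 558, 487 and 465 CPM in day 14 replicate 6 and day 20 replicates 1 and 2. The other later wells were at 1243, 1451 and 2255 CPM. The later wells with low sums were the high wells for CAV1, CAV2 and SLC30A1. Of the 20 cell cycle genes 1 was higher, CCNE2 (1.18 ± 0.33, adjusted p = 0.2). MKI67 was at 19.1 to 84.8 CPM at day 11 and 25.5 to 167 CPM later. Both sums were high in the day 11 wells in which the sarcomere sum was low, and their part in the lists above was not tested.

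Pluripotency genes had a median of -0.20 with 2 of 5 lower, and a median of 0.22 without the RIN covariate. LIN28A, an RNA-binding protein of early embryonic cells, was at 140 to 248 CPM at day 11, at 113, 103 and 166 CPM at day 14 and at 25.7, 39.7 and 94.2 CPM at day 20. The DNA methyltransferase gene DNMT3B was at 46.1 to 67.1 CPM at day 11 and 22.5 to 54.6 CPM later. Both fell with 27 libraries (LIN28A adjusted p = 0.0270, DNMT3B adjusted p = 0.0390). Neural markers had 0 of 5 tested genes at an unadjusted p under 0.05. TUBB3 was at 15.2 to 70.1 CPM at day 11 and 25.8 to 119 CPM later. Blood markers had 0 of 3. CD34 was at 1.08 to 12.3 CPM at day 11 and 0.736 to 5.53 CPM later. The embryonic globin HBE1 was at 9.59 and 38.7 CPM in day 11 replicates 1 and 2 and at 0.202 to 0.271 CPM in replicates 5 to 7.

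**Figure D4:**
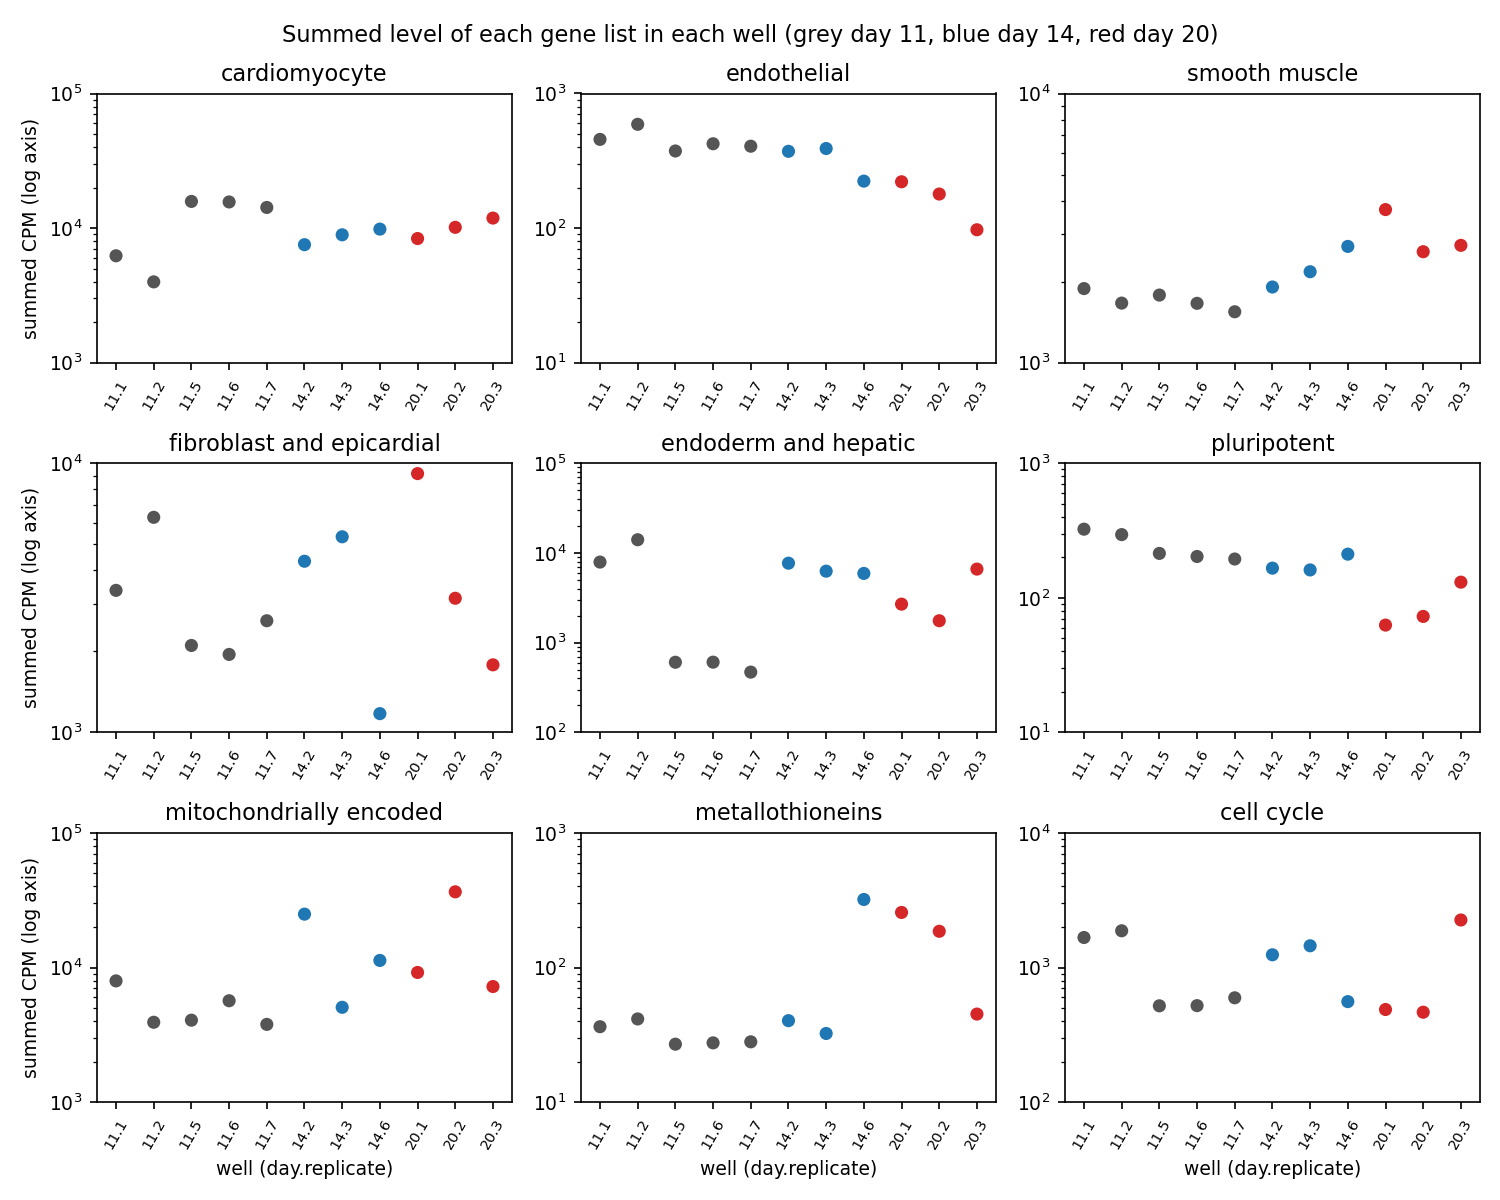
Summed CPM of 9 gene lists in each well, on log axes, with wells named as day and replicate. The endothelial sum decreases from day 11 to day 20 and the smooth muscle sum lies higher in all later wells, whereas the endoderm and hepatic and the cell cycle sums divide the day 11 wells, and the metallothionein list is high in 3 of the 6 later wells.

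The medians of the metabolic lists depended on the fit. Fatty acid oxidation had a median of -0.01 (-0.05 to 0.32 over the alternatives) with 1 of 16 higher, the fatty acid transporter CD36, which was at 1.70 to 3.12 CPM at day 11 and 2.47 to 9.86 CPM later (1.23 ± 0.39, adjusted p = 0.236). ETFDH was at 14.6 to 20.5 CPM and 16.9 to 30.1 CPM later. Glycolysis had a median of -0.09 (-0.28 to 0.17) with 0 of 16 at an unadjusted p under 0.05. PFKM was at 162 to 363 CPM at day 11 and 120 to 227 CPM later, and GPI at 342 to 655 CPM and 372 to 615 CPM. Cholesterol synthesis had a median of -0.04 (-0.52 to 0.56) over 14 genes. FDFT1, the squalene synthase, was at 122 to 156 CPM at day 11 and 69.4 to 165 CPM later. Genes of the ATF4 response had a median of -0.08 (-0.23 to 0.63) with 0 of 10. CHAC1 was at 3.05 to 11.7 CPM and 8.43 to 14.3 CPM, and SESN2 at 18.1 to 34.5 CPM and 25.6 to 38.6 CPM. Creatine kinases and muscle respiratory subunits had a median of 0.17 (-0.26 to 0.82), and 1 of 12 was higher. This was CKMT2, the mitochondrial creatine kinase of muscle, at 1.49 to 6.52 CPM at day 11, at 4.65, 6.06 and 14.1 CPM at day 14 and at 11.3, 10.8 and 27.5 CPM at day 20 (2.11 ± 0.45, adjusted p = 0.168), and it rose with 27 libraries (adjusted p = 0.0458). ATP5F1A was at 885 to 1438 CPM and 577 to 1149 CPM later.

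The pooled group joins 2 days, which were also compared with each other. In the direct comparison of day 20 with day 14, 1 of 20192 genes passed (0.00495%), and it was HSPB3 (log2 fold change 3.01 ± 0.24, adjusted p = 0.0017). Leaving out both wells with the fewest counts, day 14 replicate 2 and day 20 replicate 2, left 0 genes past the threshold (608 at an unadjusted p under 0.05), with HSPB3 at 2.83 (edgeR adjusted p = 0.140). With sequencing lane as a factor it was at 3.00 (edgeR adjusted p = 0.508).

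Against day 11, day 14 alone gave 0 of 20192 genes (1147 at an unadjusted p under 0.05; smallest adjusted p 0.0614 for SPHKAP). Day 20 alone gave 130, of which 100 were higher (0.495%) and 30 lower (0.149%). These 2 contrasts share the day 11 wells, and they were computed after the pooled result was seen. In the day 20 contrast HSPB3 differed from day 11 by 4.42 ± 0.21, SPHKAP by 4.82 ± 0.29 and HAPLN1 by -2.32 ± 0.17, against 1.42, 2.37 and -1.02 at day 14.

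The slope on RIN in the pooled fit was taken as a test after the data were seen. It passed 210 genes (1.15%), 90 higher and 120 lower at higher RIN, against 0 for the days. Each result lay close to the threshold, with a smallest edgeR adjusted p of 0.0495 for RIN and 0.0529 for the days. At an unadjusted p under 0.05 there were 3746 genes for RIN and 2602 for the days. RIN also differed between the sets of day 11 wells, so part of its slope may come from that division. The later wells, with RIN from 7.4 to 9.8, enter the slope as well. How much each set of wells adds to it was not tested. The 210 genes included 0 of the 23 genes above. At a share of 1.15% of all genes, 0 of 23 is no result about these genes. Among the 23, EGR1 (slope -0.88 per RIN unit, edgeR adjusted p = 0.0582) and NR2F2 (-0.45, edgeR adjusted p = 0.0792) came closest to passing. HSPB3 and CAV1 had adjusted p values of 0.771 and 0.383 for the RIN slope, and MT-CYB and MT-ND5 had 0.0522 and 0.0501. Of the 13 mitochondrially encoded genes 2 passed, both lower with better integrity: MT-ND6 (slope -2.57 per RIN unit, edgeR adjusted p = 0.0495) and MT-ND2 (-1.63, edgeR adjusted p = 0.0495).

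The days around the comparison place these genes in the course of the culture, as a description without a test and on the scaling of the 27 libraries. HSPB3 averaged 1.09 CPM at day 9, 144 CPM at day 30 and 323 CPM at day 90. MYL2 averaged 0.475 CPM at day 9, 104 CPM at day 30 (23.3 to 258 CPM over 3 wells) and 269 CPM at day 90. SPHKAP averaged 155 CPM at day 30 and 187 CPM at day 90, against 64.8 to 144 CPM in the day 20 wells. CAV1 ran from 28.2 to 274 CPM at day 30, so that its wells remained far apart. NR2F2 averaged 9.86 CPM at day 30 and 7.63 CPM at day 90, near its day 11 level of 7.49 CPM. HAPLN1 averaged 289 CPM at day 9 and 6.43 CPM at day 90, and CDH5 53.0 CPM at day 9 and 0.306 CPM at day 90.

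**Figure D5:**
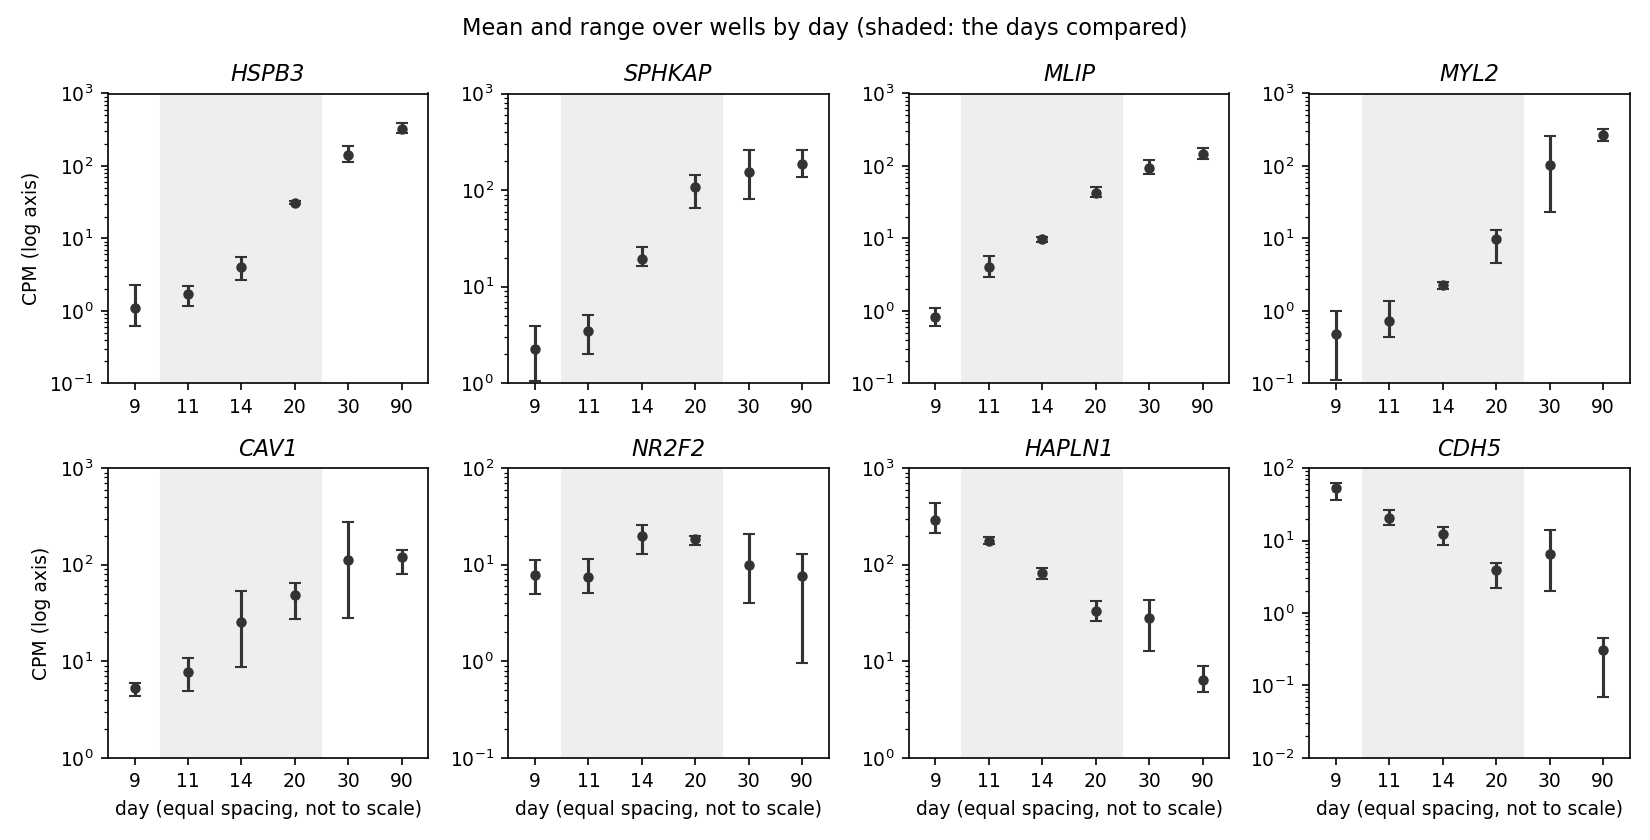
Mean level in CPM of 8 genes at days 9, 11, 14, 20, 30 and 90 on log axes, with bars from the lowest to the highest well and the compared days shaded. HSPB3, SPHKAP, MLIP and MYL2 keep their later level or go higher at days 30 and 90, NR2F2 is highest at days 14 and 20, and HAPLN1 and CDH5 are lowest at day 90.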

How the data were processed

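RNA of 11 wells was sequenced as stranded total RNA libraries with 150 bp paired-end reads. Reads were processed with cutadapt, STAR 2.5.2b and RSEM 1.2.31 on hg38, per the submitters' processing notes. The authors deposited estimated counts per gene (60499 genes, 93.84% of values whole) and TPM values. RIN is a score per the labels. The annotation release and the strand setting are not given in the sources used here. Estimated counts were rounded, filtered with filterByExpr, scaled with TMM and tested with edgeR 4.0.16 in R 4.3.3 (quasi-likelihood test, Benjamini-Hochberg adjustment, RIN as covariate). CPM values are TMM-scaled. A count of 3, the floor, was worth 0.0958 to 0.432 CPM.

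The genes named were HSPB3 and CAV1, then 10 per direction by size of change among passed genes with separate ranges and a mean of at least 5 CPM, or by smallest unadjusted p where too few passed, and the 2 members with the smallest p of each list. Of these, 3 genes are not reported here. The genes that passed with 1 mean per day, and MYH6, NPPA and KDR, were named after their values were seen. The members and lists were chosen with earlier results of these data known. Single values were tested by exact permutation (scipy 1.17.1). DESeq2 1.42.0, limma 3.58.1 on log2(TPM + 1) or log2(TPM + 0.1), other filters, covariates and sets of wells were alternatives. On simulated counts for 18277 genes of the pooled comparison, 39% of 2-fold and 78% of 4-fold changes were recovered, out of 100 genes each. For day 20 against day 14 (20192 genes) these were 3% and 63%. Recovery with a slope on RIN, with divided day 11 wells or with a step from day 14 to day 20 was not tested. Recovery for genes of low count was not tested either. Symbols were matched for 56769 genes, and positions are from GENCODE 29 (GRCh38).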

Additional observations from a re-analysis of the deposited data

Results flagged for a closer look

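In 10 of 158 groups of wells tested (6.33%, where chance gives about 1 in 20) the highest or lowest well lay far from the others. At day 11, replicate 2 was the low well for MYL9 (201 CPM) and the high well for GLUL (424 CPM), FOS (14.4 CPM) and HBE1 (38.7 CPM). Replicate 1 was the low well for VWF at day 11 (2.25 CPM). Among the later wells, day 20 replicate 3 was the high well for COL17A1 (34.956 CPM), MYL3 (997 CPM) and ALB (102 CPM) and stood apart for ADAMTSL1 (27.9 CPM). Day 14 replicate 6 was the high well for MT1E (26.3 CPM). HSPB3 differed between the 2 later days by 3.01 on the log2 scale in the direct test of day 20 against day 14.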

How the results depend on the processing

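The pooled comparison passed 0 genes in edgeR (2602 at an unadjusted p under 0.05), 0 with RLE scaling, with lane as a factor and with limma on TPM. It passed 673 genes with DESeq2 (422 higher), 2824 with all 44 libraries (1431 higher), 553 with 27 libraries (246 higher), 224 with sample quality weights (135 higher), 23 with 1 mean per day (19 higher), 12 without a filter (12 higher), and 1, higher, both with 1 CPM in 5 wells and without the covariate. Leaving out wells in turn gave 0 to 187 genes (0 to 134 higher): 187 without day 14 replicate 2, 150 without day 14 replicate 3 (95 higher) and 1 without day 20 replicate 3. Chosen after seeing the data, leaving out day 11 wells 1 and 2 gave 348 (198 higher) and leaving out the 2 wells with the fewest counts gave 63 (44 higher). Day 20 against day 14 passed 1 gene, 37 with DESeq2, 4 without a filter, 17 with 44 libraries, 8 with 27, 0 with lane, 0 without the 2 wells with the fewest counts and 1 to 11 with wells left out in turn (11 without day 20 replicate 3, 2 without day 11 replicate 6 or day 14 replicate 6). With the replicate block, 0 genes passed in the pooled comparison and 36 for day 20 against day 14. Same-numbered wells did not deviate together throughout (correlations -0.24 to 0.52), so the numbers were not taken as pairs. Between days 14 and 20 the correlations were 0.52 for replicate 2 and 0.49 for replicate 3, the highest among wells of these days. Each of these pairs also shared a lane, so number and lane cannot be told apart for them. The difference in mitochondrially encoded share ran from 0.671 to 1.27 percentage points with wells left out in turn. TPM shifted the median of all genes by 0.21 (pseudocount 1) and 0.24 (pseudocount 0.1).

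Direction was followed for 80 results: genes chosen by the rule for named genes, genes that passed with 1 mean per day, and HSPB3 for day 20 against day 14. Of their 2059 values, 13 reversed. With the replicate block these were MKI67 (-1.58), ALB (-1.35), CDH1 (-1.23), TUBB3 (-1.03) and PFKM (0.092). Without day 11 wells 1 and 2 they were CD34 (0.31), HBE1 (3.62), FDFT1 (0.13) and GPI (-0.013). HBE1 was also at 0.97 with quality weights, 0.021 with log2(TPM + 0.1), 0.17 without day 11 replicate 2 (range -1.71 to 0.17 with wells left out in turn) and 0.46 without the 2 wells with the fewest counts. The cause was not tested.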

Other observations

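Day 20 alone against day 11, computed after the data were seen, had 30 lower genes, among them 2 of the 12 endothelial markers, CDH5 and KDR, and 0 of 5 blood markers. TAL1, a transcription factor of blood and endothelial progenitors, was at 5.35 to 11.5 CPM at day 11, 2.80 to 4.34 CPM at day 14 and 0.699 to 2.10 CPM at day 20 (log2 fold change -2.77 ± 0.45, edgeR adjusted p = 0.0305). MMRN1, a protein of platelets and endothelium, was at 7.67 to 19.3 CPM, 3.81 to 12.1 CPM and 0.546 to 1.29 CPM (-3.82 ± 0.55, edgeR adjusted p = 0.0178). KDR was at 206 to 326 CPM, 165 to 224 CPM and 65.4 to 122 CPM (-1.44 ± 0.23, edgeR adjusted p = 0.0268).

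Of the 100 higher genes, the keratin gene KRT7 was at 3.94 to 8.77 CPM at day 11, 5.42 to 14.5 CPM at day 14 and 19.0 to 45.0 CPM at day 20 (2.44 ± 0.31, edgeR adjusted p = 0.0098). PRDM16, a transcription factor of ventricular muscle and other tissues, was at 6.82 to 11.3 CPM, 13.2 to 30.8 CPM and 21.9 to 34.8 CPM (1.56 ± 0.28, edgeR adjusted p = 0.0426). These genes were chosen after their values were seen.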
